A study of Mus musculus with 18 samples.

Results

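The genes of the mouse mitochondrial genome were followed through endothelial cells and a breast cancer cell line. They were taken by symbol, as every gene whose name begins with mt-, and numbered 37 of the 55401 genes listed for the endothelial libraries and 13 of the 22612 listed for the cancer cell libraries. The 37 were 13 protein genes, 2 ribosomal RNA genes and 22 tRNA genes. The table of the cancer cells listed the protein genes alone.

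All 18 libraries were used, in 6 groups of 3. High endothelial cells (HECs) and blood vessel endothelial cells (BECs) came from wild-type female C57BL/6 mice that were 5 to 6 weeks old when obtained, and were sorted as CD45- CD31high cells that were PNAd+ (HECs) or PNAd- (BECs). HEC normal came from inguinal lymph nodes of mice without a tumour and HEC tumour from those of mice given EO771 tumours in the mammary fat pad. Whether these nodes held metastases is not stated for these libraries. BEC normal came from the mammary fat pad and BEC tumour from the EO771 primary tumour, so that cell type and tissue cannot be told apart in any comparison of HECs with BECs. EO771, a mouse mammary carcinoma line, received either 100 nM of the arachidonic acid derivative 12-HETE (EO771 12-HETE) or the solvent, 2% DMSO in saline (EO771 vehicle), for 48 h. The deposited values summed to between 56410964 and 79357993 in the endothelial libraries and to between 17294591 and 18624179 in the EO771 libraries. Markers of high endothelium summed to 970 to 1327 CPM (counts scaled to a common library total) in HEC normal and to 2219 to 3052 in HEC tumour. They summed to 1.38 to 4.28 in the BEC libraries, with Glycam1 and Chst4 at 0 in every BEC library. Of the same list, Ccl21a stood at 0 in every HEC library and Madcam1 in every HEC normal library.

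Mitochondrial DNA is a small circle that is read from both strands as long precursor RNAs. Most genes use the heavy strand as the template, and the others, which include mt-Nd6, use the light strand. The tRNAs stand between the other genes, and their excision by RNase P and ELAC2 releases the mRNAs and the ribosomal RNAs. The proteins are subunits of complexes I, III and IV and of the ATP synthase of the respiratory chain, and the ribosomal RNAs (12S, mt-Rnr1, and 16S, mt-Rnr2) and the tRNAs serve their translation inside the organelle. Of the 37 genes, 28 used the heavy strand and 9 the light strand, namely mt-Nd6 and 8 tRNAs.

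The tRNAs that moved most clearly between HECs and BECs are printed here because their position and strand recur through the results. The sequences are those of the GENCODE transcripts on GRCm38, written 5′ to 3′ in the sense of the tRNA with the anticodon in capitals. The first 4 form an unbroken light-strand cluster between mt-Nd2 and mt-Co1, mt-Tp is the light-strand tRNA next to the control region, and mt-Tl1 is the heavy-strand tRNA between mt-Rnr2 and mt-Nd1.
mt-Ta, tRNA-Ala, chrM:5018-5086, minus strand: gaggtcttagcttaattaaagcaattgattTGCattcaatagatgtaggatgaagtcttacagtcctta
mt-Tn, tRNA-Asn, chrM:5089-5159, minus strand: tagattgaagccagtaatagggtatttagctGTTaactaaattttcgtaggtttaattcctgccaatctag
mt-Tc, tRNA-Cys, chrM:5192-5257, minus strand: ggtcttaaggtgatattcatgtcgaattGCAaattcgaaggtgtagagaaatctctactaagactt
mt-Ty, tRNA-Tyr, chrM:5260-5326, minus strand: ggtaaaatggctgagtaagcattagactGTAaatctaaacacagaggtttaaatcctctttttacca
mt-Tp, tRNA-Pro, chrM:15356-15422, minus strand: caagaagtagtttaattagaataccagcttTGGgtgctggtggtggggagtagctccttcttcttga
mt-Tl1, tRNA-Leu, chrM:2676-2750, plus strand: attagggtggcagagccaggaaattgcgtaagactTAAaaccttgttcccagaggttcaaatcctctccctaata

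Part of the mitochondrial genome has a nuclear copy that the same reads can match. On chromosome 1, chr1:24611535-24616197 of GRCm38 (4663 bases) holds annotated copies of mt-Co1, mt-Co2, mt-Atp6, mt-Co3, mt-Nd3, mt-Nd4l and mt-Nd4. The stretch between the annotated copies of mt-Co2 and mt-Atp6 is 233 bases long on chromosome 1, as on the mitochondrial genome, where it holds 161 bases of mt-Atp8. mt-Atp8 has no annotated copy but may therefore be matched as well, and so may the 5 tRNAs inside the copied span (mt-Ts1, mt-Td, mt-Tk, mt-Tg and mt-Tr), whose sequence on chromosome 1 was not analysed here. Over the aligned stretch 5 of the 7 copies were identical to the mitochondrial gene. The other 2 differed by 1 base each, which is shown in capitals in the windows below, with positions counted from 1 at the first base of the mitochondrial gene.
mt-Co1, chrM:6390-6423, plus strand: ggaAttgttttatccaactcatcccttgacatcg
Gm29216, copy of mt-Co1, A1066T: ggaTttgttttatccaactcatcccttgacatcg
mt-Nd3, chrM:9459-9491, plus strand: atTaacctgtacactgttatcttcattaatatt
Gm28438, copy of mt-Nd3, T3C: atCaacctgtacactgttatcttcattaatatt

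As deposited, without the chromosome 1 copies, the mitochondrial genes made up a higher share of the library in HEC tumour than in the other endothelial groups, apart from 1 library of BEC normal. For HEC tumour the share of the library total was 2.85%, 3.09% and 3.05%, and for HEC normal it was 2.44%, 2.23% and 2.34%. For BEC tumour it was 2.42%, 2.28% and 2.06%, and for BEC normal 3.01%, 2.32% and 2.40%. The HEC tumour libraries lay above all BEC tumour and all HEC normal libraries, while the other pairs of groups overlapped. HEC tumour exceeded HEC normal by 0.664 percentage points and BEC tumour by 0.744 (exact two-sided permutation test, p = 0.1 for each), which is the smallest p that 3 libraries against 3 allow. The difference was -0.242 percentage points for HEC normal against BEC normal (exact permutation p = 0.5) and -0.321 for BEC tumour against BEC normal (exact permutation p = 0.3). BEC normal 1 carried most of both differences, which were -0.0261 and -0.106 without it. With the copies added the order changed, to means of 3.30% for BEC normal, 3.14% for HEC tumour, 2.83% for BEC tumour and 2.57% for HEC normal. The difference of HEC normal from BEC normal was then -0.723 percentage points with no overlap (exact permutation p = 0.1), and that of BEC tumour from BEC normal -0.461 (exact permutation p = 0.2). HEC tumour then exceeded HEC normal by 0.565 and BEC tumour by 0.303 (exact permutation p = 0.1 for each). Without the ribosomal RNAs, and without copies, HEC normal lay below BEC normal by -0.439 with no overlap (exact permutation p = 0.1). The sums count RNA per library, so fewer cells of a type and less of this RNA per cell cannot be told apart.

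**Figure D1:**
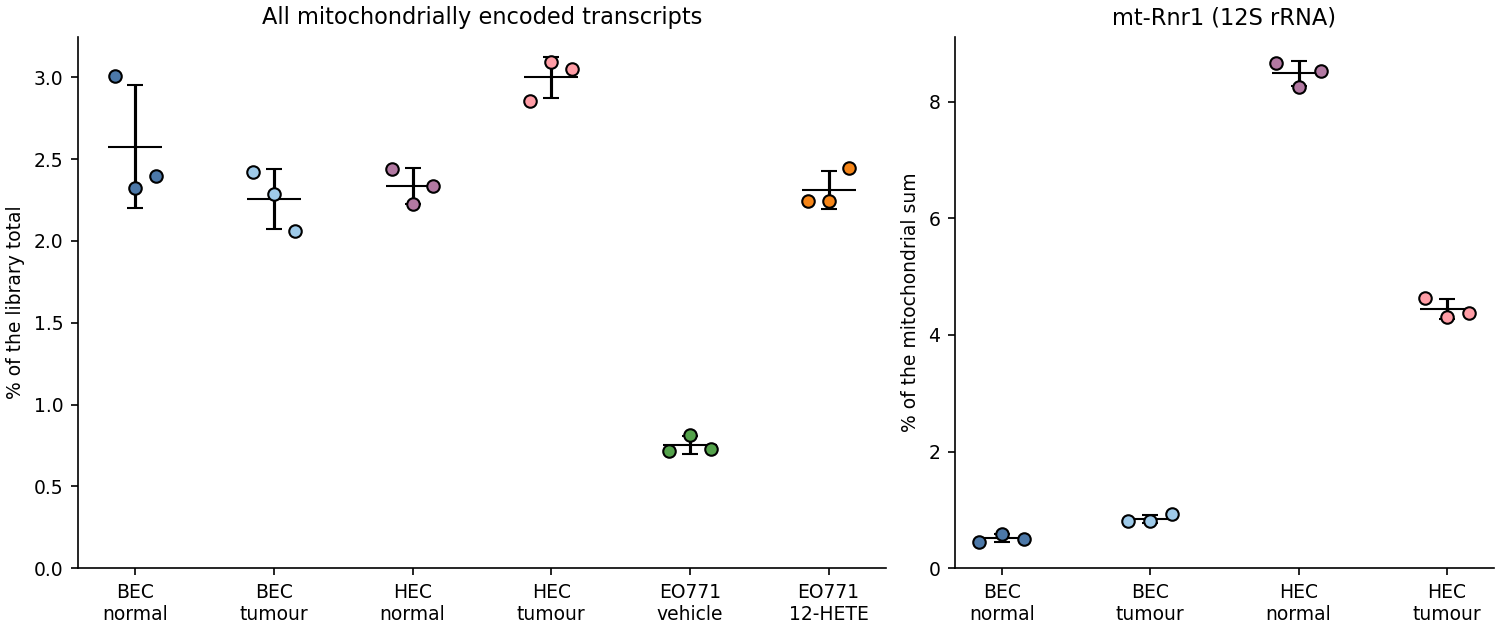
Left, the summed mitochondrial genes as a percentage of the library total in the 6 groups; right, mt-Rnr1 as a percentage of the mitochondrial sum in the 4 endothelial groups. Points are libraries, the horizontal bar is the mean and the whiskers are ± 1 SD (n = 3). The EO771 vehicle libraries lie between 0.718% and 0.816% and the 12-HETE libraries between 2.24% and 2.45%, and mt-Rnr1 reaches 8.24% to 8.67% in HEC normal against 0.455% to 0.586% in BEC normal.

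The make-up of this share differed more than its size. Protein genes held 98.3% ± 0.0400 of the mitochondrial sum for BEC normal and 98.5% ± 0.0950 for BEC tumour, but 89.5% ± 0.223 for HEC normal and 93.9% ± 0.218 for HEC tumour (SD, n = 3). The ribosomal RNAs took the difference, with 1.48% ± 0.0400 and 1.38% ± 0.0792 in the BEC groups and 10.1% ± 0.235 and 5.82% ± 0.218 in the HEC groups. The tRNAs stayed below 0.5% of the sum everywhere, at 0.183% ± 0.00123 in BEC normal and 0.115% ± 0.0165 in BEC tumour against 0.426% ± 0.0167 in HEC normal and 0.264% ± 0.00751 in HEC tumour. Light-strand genes, mostly mt-Nd6, held 3.20% ± 0.245 of the sum in HEC normal against 1.47% ± 0.130 in BEC normal, and 2.98% ± 0.0585 in HEC tumour against 2.09% ± 0.211 in BEC tumour. In both settings the HEC libraries lay above the BEC libraries for the light-strand share (exact permutation p = 0.1 for each).

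Per kilobase of gene and as deposited, mt-Co1, the catalytic subunit of complex IV, stood highest of all 37 genes in every endothelial group. Its level in normalised counts per kb was 544792 ± 39989 (HEC normal), 564526 ± 24080 (HEC tumour), 370762 ± 15625 (BEC normal) and 389415 ± 23864 (BEC tumour; SD, n = 3), where a normalised count is the deposited value divided by the size factor of its library. It alone supplied 52.8% ± 1.63, 44.9% ± 0.226, 32.4% ± 2.76 and 39.8% ± 0.796 of the mitochondrial sum in the same order. With the chromosome 1 copies added it still led in 3 groups, but in BEC normal mt-Co2 stood at 482492 ± 37458 per kb and mt-Co1 at 434690 ± 17115, within reach of their SDs. As deposited, the lowest protein gene was mt-Nd3, a small complex I subunit, in 3 groups, at 17722 ± 1791 per kb for BEC tumour, 13453 ± 543 for HEC normal and 24526 ± 3742 for HEC tumour. In BEC normal mt-Nd5 (45739 ± 7576 per kb), mt-Nd3 (46204 ± 2765) and mt-Nd6 (47473 ± 11138) lay within their SDs of one another. The leading tRNA was not the same in every group. mt-Tl1 led in BEC normal with 13281 ± 2439 per kb, mt-Te, the light-strand tRNA-Glu, led in BEC tumour with 7763 ± 1035 and in HEC tumour with 15885 ± 626, and mt-Tn led in HEC normal with 28577 ± 987. In HEC tumour mt-Tn, at 15782 ± 1757, did not differ from mt-Te beyond their SDs.

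The first comparison asked how HECs of the resting lymph node differ from the blood vessel endothelium of the normal fat pad. The small ribosomal RNA and 5 of the 7 light-strand tRNAs tested were higher in the HECs, and 7 of the 12 heavy-strand mRNAs were lower. A gene was called where the DESeq2 Wald test gave an adjusted p under 0.05 and the fold exceeded 2. Of 36 mitochondrial genes tested (mt-Tq, tRNA-Gln, fell under the filter on low values) 8 were called higher and 13 lower, where 17.1% of all genes tested were called higher and 15.1% lower. By class, 0 of 13 protein genes were called higher and 7 lower, 1 of 2 ribosomal RNAs was called higher, and 7 of 21 tRNAs were called higher and 6 lower. The median log2 fold change was -1.33 for the 12 heavy-strand protein genes and 1.66 for the 7 light-strand tRNAs tested, beside 0.00463 for all genes.

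mt-Rnr1 showed the most certain change. It stood at 9342, 9498 and 8406 normalised counts in BEC normal and at 144650, 125311 and 135776 in HEC normal. The log2 fold change was 3.90 ± 0.0680 (SE), with an adjusted p too small for the software to represent. mt-Rnr2, which follows it on the same precursor, stood at 20140, 15065 and 16269 in BEC normal and at 26963, 23920 and 24733 in HEC normal. Its change of 0.55 ± 0.110 on the log2 scale (adjusted p = 1.28e-06) stayed under the fold threshold. The ratio of mt-Rnr1 to mt-Rnr2 was thus 0.537 ± 0.0851 in BEC normal and 5.36 ± 0.126 in HEC normal (SD, n = 3). The neighbouring tRNAs mt-Tf and mt-Tv were also called higher, from small values: mt-Tf stood at 3.53, 4.71 and 8.13 normalised counts in BEC normal and at 92.3, 83.5 and 90.8 in HEC normal (log2 fold change 4.04 ± 0.513, adjusted p = 1.78e-14).

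The 4 clustered light-strand tRNAs and mt-Tp rose together. mt-Ta stood at 217, 214 and 220 normalised counts in BEC normal and at 1259, 1206 and 1291 in HEC normal (log2 fold change 2.53 ± 0.152, adjusted p = 6.22e-61). mt-Tn stood at 331, 349 and 377 in BEC normal and at 2049, 1951 and 2087 in HEC normal (2.53 ± 0.153, adjusted p = 3.34e-60). No library of one group reached the other for either gene. mt-Tc, at 168 to 177 in BEC normal and 713 to 795 in HEC normal, changed by 2.14 ± 0.159 (adjusted p = 2.83e-40). mt-Tp, at 263, 197 and 185 in BEC normal and at 705, 616 and 718 in HEC normal, changed by 1.66 ± 0.166 (adjusted p = 1.13e-22), and mt-Ty, at 95.3 to 112 and 289 to 316, by 1.54 ± 0.205 (adjusted p = 2.19e-13). mt-Te, also of the light strand, changed by 0.55 ± 0.167 and was not called. mt-Nd6, the complex I subunit that is the only light-strand mRNA, stood at 31249, 20533 and 22133 in BEC normal and at 44116, 47015 and 43614 in HEC normal. Its groups did not overlap, yet its log2 fold change of 0.87 ± 0.152 (adjusted p = 4.36e-08) stayed under the fold threshold. It passed without BEC normal 1, at 1.07. mt-Ts1, the remaining light-strand tRNA, was called lower from small values, at 35.3, 27.1 and 25.4 in BEC normal and 10.1, 11.2 and 6.69 in HEC normal. Whether reads were counted by strand in the endothelial libraries is not given in the sources used here, and without strand the reads of a light-strand gene and of the heavy-strand precursor across it cannot be told apart.

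**Figure D2:**
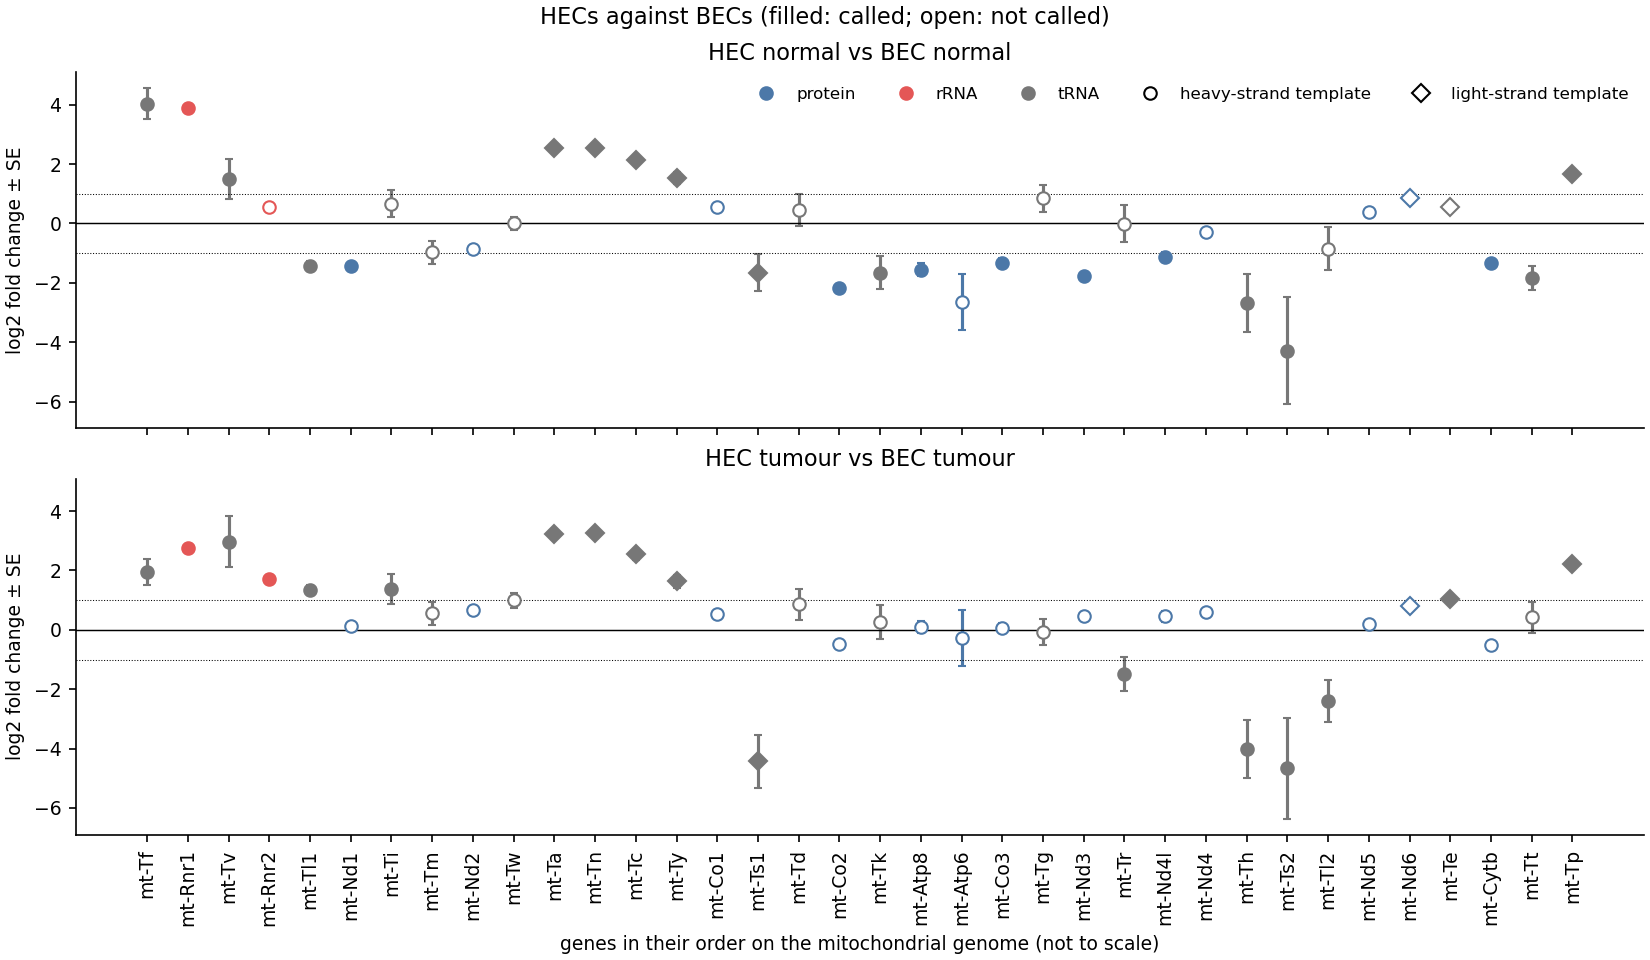
Log2 fold change ± SE of each mitochondrial gene for HEC normal against BEC normal (top) and HEC tumour against BEC tumour (bottom), with genes in genome order. Circles are heavy-strand and diamonds light-strand genes, colours mark protein, rRNA and tRNA genes, filled symbols were called, and the dotted lines mark a fold of 2. The cluster from mt-Ta to mt-Ty lies between 1.54 and 3.26 in both panels, while the heavy-strand mRNAs from mt-Co2 to mt-Nd3 lie below 0 in the top panel and between -0.47 and 0.47 in the bottom one.

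The heavy-strand mRNAs did not move as a block. mt-Co2, a core subunit of complex IV, stood at 204388, 196783 and 173157 normalised counts in BEC normal and at 45527, 42297 and 38647 in HEC normal (log2 fold change -2.18 ± 0.139, adjusted p = 2.83e-54). mt-Nd3 stood at 16351, 16876 and 15010 against 4797, 4784 and 4464 (-1.78 ± 0.118, adjusted p = 2.18e-50), and mt-Nd1, another complex I subunit, at 201533, 166043 and 173788 against 62691, 73275 and 66913 (-1.42 ± 0.0890, adjusted p = 1.25e-55). Every BEC normal library lay above every HEC normal library for these genes. mt-Cytb, the mitochondrial subunit of complex III, stood at 242050, 175544 and 204067 against 80564, 82022 and 82317 (-1.34 ± 0.106, adjusted p = 1.21e-35). mt-Atp8, mt-Co3 and mt-Nd4l were called lower too, with log2 fold changes of -1.55, -1.32 and -1.13. In contrast mt-Co1 was higher, at 599770, 553165 and 565546 in BEC normal and 894688, 773839 and 856585 in HEC normal, with a log2 fold change of 0.56 ± 0.0733 (adjusted p = 1.76e-13) that stayed under the fold threshold. mt-Nd5, at 0.40 ± 0.128, and mt-Nd4, at -0.28 ± 0.124, were also not called. Among the heavy-strand tRNAs, mt-Tl1 was lower, at 1207, 886 and 895 in BEC normal and 356, 377 and 375 in HEC normal (-1.43 ± 0.154, adjusted p = 7.26e-20), a value close to that of mt-Nd1 which it adjoins. mt-Tk and mt-Tt were called lower from small values. mt-Th and mt-Ts2 were called lower as well, but their groups overlapped: mt-Ts2 stood at 36.2, 1.18 and 1.02 in BEC normal and at 0, 1.02 and 0.956 in HEC normal, so that BEC normal 1 alone stood high. Markers of pericytes and fibroblasts, all 9 of which were detected in BEC normal, summed to 845 to 855 CPM there and to 25.6 to 26.9 in HEC normal, and their part in these differences was not tested.

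HECs and BECs of tumour-bearing mice were compared in the same way. Both ribosomal RNAs and 6 of the 7 light-strand tRNAs tested were higher in the HECs, with mt-Ts1 lower, whereas no mRNA was called in either direction. Of 36 genes tested 12 were called higher and 5 lower, beside 11.2% and 10.7% of all genes tested. Both ribosomal RNAs and 10 of 21 tRNAs were called higher. The 13 protein genes had a median log2 fold change of 0.19, and all of those with an adjusted p kept between -0.52 and 0.81.

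mt-Rnr1 stood at 13178, 12397 and 12821 normalised counts in BEC tumour and at 86033, 86231 and 86278 in HEC tumour (log2 fold change 2.75 ± 0.0678, with an adjusted p again too small to represent). mt-Rnr2 stood at 8931, 7772 and 7584 against 26569, 26734 and 27052 (1.73 ± 0.110, adjusted p = 6.87e-54). mt-Tn stood at 88.1, 118 and 145 against 1009, 1097 and 1255 (3.26 ± 0.164, adjusted p = 5.30e-86). The HEC tumour libraries lay far above the BEC tumour libraries for all 3 genes. mt-Ta, at 56.6 to 89.8 in BEC tumour and 625 to 790 in HEC tumour, changed by 3.24 ± 0.169 (adjusted p = 7.38e-80), and mt-Tc, at 62.1 to 88.9 and 382 to 472, by 2.54 ± 0.174 (adjusted p = 1.25e-46). mt-Tp changed by 2.23 ± 0.171 (adjusted p = 3.53e-37) and mt-Ty by 1.64 ± 0.217 (adjusted p = 3.49e-13). The tRNA mt-Te just passed the fold threshold, at 601, 547 and 459 in BEC tumour and 1067, 1146 and 1076 in HEC tumour (1.03 ± 0.167, adjusted p = 3.14e-09), and missed it without BEC tumour 3 (0.93). mt-Tl1, which had been lower in HEC normal, was higher here, at 271, 272 and 236 against 696, 686 and 608 (1.35 ± 0.157, adjusted p = 5.68e-17). mt-Nd6 changed by 0.81 ± 0.152 (adjusted p = 5.02e-07), short of the threshold.

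The 5 genes called lower were tRNAs of small value. mt-Ts1 stood at 35.2, 29.6 and 29.6 normalised counts in BEC tumour and at 4.62, 0 and 0 in HEC tumour (adjusted p = 3.93e-06), and mt-Ts2 at 49.2, 31.3 and 1.74 against 1.15, 0.987 and 1.11. mt-Th, mt-Ts2 and mt-Tl2, which encode tRNA-His, a tRNA-Ser and a tRNA-Leu and stand side by side after mt-Nd4, were each called lower, as was mt-Tr. In BEC tumour, markers of leukocytes summed to 1464 to 1962 CPM with none of the 10 at 0 in every library, against 356 to 374 in HEC tumour, where Adgre1, Cd3e and Cd8a were at 0. Markers of epithelium and tumour cells summed to 12.1 to 104 in BEC tumour and to 2.47 to 2.73 in HEC tumour, where Epcam, Krt5 and Krt14 were at 0. Whether these cells contributed to the differences was not tested.

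HECs of mice with and without a tumour differed in fewer genes, and the genes called higher were 4 mRNAs, or 2 with the chromosome 1 copies added. Of 36 genes tested 4 were called higher and 2 lower, beside 4.58% and 3.21% of all genes tested. All 13 protein genes had a positive log2 fold change, with a median of 0.87 beside 0.0187 for all genes, and 4 of them were called. mt-Nd4l, a complex I subunit, stood at 8991, 7972 and 8092 normalised counts in HEC normal and at 21228, 29383 and 29296 in HEC tumour (log2 fold change 1.67 ± 0.180, adjusted p = 6.83e-19). mt-Co2 stood at 45527, 42297 and 38647 against 68933, 104276 and 98072 (1.10 ± 0.139, adjusted p = 5.89e-14), and mt-Atp8, an ATP synthase subunit, at 12922, 10496 and 10673 against 24896, 35414 and 34688 (1.48 ± 0.203, adjusted p = 6.84e-12). HEC tumour 1 was the lowest library of its group for each of them, and it is also the library of that group in which the copies took most reads. Whether the call of mt-Atp8 depends on reads shared with chromosome 1 was not tested. mt-Co3 stood at 66976, 52010 and 49487 against 88359, 128719 and 123804 (1.02 ± 0.155, adjusted p = 7.80e-10), only just past the fold threshold, which it missed by edgeR (0.99) and without HEC normal 2, HEC normal 3, HEC tumour 2 or HEC tumour 3 (0.92 to 0.96). mt-Co2 missed it without HEC tumour 2 (0.99). mt-Rnr1 went the other way, by -0.65 ± 0.0675 (adjusted p = 2.51e-20), and mt-Ta, mt-Tn and mt-Tc by -0.85, -0.86 and -0.85, none past the fold threshold. mt-Rnr2, at 0.09 ± 0.110 (adjusted p = 0.590), and mt-Nd6, at 0.26 ± 0.152 (adjusted p = 0.180), missed both thresholds. The genes called lower were mt-Tt, at 25.4, 36.6 and 30.6 against 9.24, 14.8 and 11.1 (-1.39 ± 0.463, adjusted p = 0.00993), and mt-Ts1, whose values are given above. Both calls were lost when the deposited values, which mostly fall on steps of about 3.69, were divided by that step. Markers of high endothelium went from 970 to 1327 CPM in HEC normal up to 2219 to 3052 in HEC tumour, with 0 of 5 tested called. Those of leukocytes went from 484 to 509 down to 356 to 374, with 1 of 8 tested called lower. Those of pericytes and fibroblasts went from 25.6 to 26.9 down to 11.2 to 12.2, with 5 of 9 called lower. The part of these markers in the differences was not tested.

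BECs of the primary tumour and of the normal fat pad differed mainly by genes lower in the tumour. Most of these were tRNA genes, as were 21 of the 36 tested. Here and in the other comparisons, reads on tRNA genes were not split into mature tRNA and precursor. Of 36 genes tested 2 were called higher and 13 lower, beside 12.4% and 10.8% of all genes tested. The 13 comprised 9 tRNAs, 3 mRNAs and mt-Rnr2. mt-Nd1 stood at 201533, 166043 and 173788 normalised counts in BEC normal and at 85427, 85900 and 76182 in BEC tumour (log2 fold change -1.13 ± 0.0890, adjusted p = 1.56e-35). mt-Tl1, just before it, stood at 1207, 886 and 895 against 271, 272 and 236 (-1.94 ± 0.155, adjusted p = 1.33e-34), and mt-Rnr2, the gene before that, at 20140, 15065 and 16269 against 8931, 7772 and 7584 (-1.08 ± 0.110, adjusted p = 7.90e-22). These 3 neighbours thus all fell, although mt-Rnr2 missed the fold threshold without BEC normal 1 (-0.96). mt-Nd2 stood at 130369, 87524 and 100239 against 53920, 54016 and 48278 (-1.03 ± 0.123, adjusted p = 6.01e-16), a call that was lost by edgeR (-0.99), without BEC normal 1 (-0.85) and without BEC tumour 3 (-0.97). mt-Nd3 changed by -1.38 ± 0.118 (adjusted p = 1.07e-30). mt-Ta, mt-Tn and mt-Tc fell by 1.56, 1.59 and 1.26 on the log2 scale (SE 0.175, 0.168 and 0.181), with mt-Tn at 331, 349 and 377 against 88.1, 118 and 145 (adjusted p = 3.58e-20). mt-Tt, the tRNA-Thr between mt-Cytb and mt-Tp, stood at 95.2, 102 and 134 against 8.35, 5.92 and 12.2 (-3.65 ± 0.451, adjusted p = 5.14e-15), and mt-Tw, the tRNA-Trp, fell by 1.64 ± 0.248. mt-Rnr1 differed by 0.49 ± 0.0683 (adjusted p = 2.91e-12), short of the fold threshold, and mt-Nd6 stood at 0.32 ± 0.152 (adjusted p = 0.0634). The genes called higher were mt-Tr, at 19.4, 4.71 and 14.2 against 45.5, 39.8 and 68, and mt-Tl2, at 31.7, 4.71 and 27.4 against 60.3, 44 and 134. Markers of leukocytes summed to 108 to 129 CPM in BEC normal, where Cd3e and Cd8a were at 0, against 1464 to 1962 in BEC tumour. Markers of pericytes and fibroblasts went from 845 to 855 CPM in BEC normal to 90.4 to 123 in BEC tumour, with 7 of 9 called lower and 1 higher. Those of epithelium and tumour cells went from 1.95 to 3.31 up to 12.1 to 104 (5 of 8 called higher) and those of erythroid cells from 0.979 to 2.07 up to 40.4 to 66.6 (5 of 7 tested called higher). General endothelial markers went from 3184 to 3409 down to 2294 to 2347, with 5 of 10 called lower. Their part in these changes was not tested.

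The difference between the tumour changes of the 2 cell types was tested as an interaction. It takes the log2 change in HECs less that in BECs, so a value above 0 can also come from a fall in BECs. All genes called above 0 used the heavy strand, as did 28 of the 36 tested. Of 36 genes 12 had a higher and 3 a lower change in HECs, beside 11.2% and 12.1% of all genes tested. Of the 12, 7 were mRNAs. The smallest adjusted p values belonged to mt-Nd3 (2.25 ± 0.166, adjusted p = 5.75e-40), mt-Tl1 (2.79 ± 0.219, adjusted p = 1.89e-35) and mt-Nd1 (1.56 ± 0.126, adjusted p = 9.97e-34), whose log2 fold changes were 0.87, 0.85 and 0.43 in HECs and -1.38, -1.94 and -1.13 in BECs. mt-Nd2, mt-Co2, mt-Co3, mt-Nd4l and mt-Atp8 followed, with differences of 1.53, 1.71, 1.39, 1.58 and 1.63. The ribosomal RNAs parted: mt-Rnr2 had a difference of 1.17 ± 0.155 (adjusted p = 4.73e-13) and mt-Rnr1 one of -1.15 ± 0.0960 (adjusted p = 2.50e-31). The ratio of mt-Rnr1 to mt-Rnr2 went from 0.537 ± 0.0851 to 1.59 ± 0.108 in BECs and from 5.36 ± 0.126 to 3.22 ± 0.0253 in HECs (SD, n = 3). mt-Nd6 showed a difference of -0.06 ± 0.215 (adjusted p = 0.852) and mt-Co1 one of -0.02 ± 0.104 (adjusted p = 0.900).

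**Figure D3:**
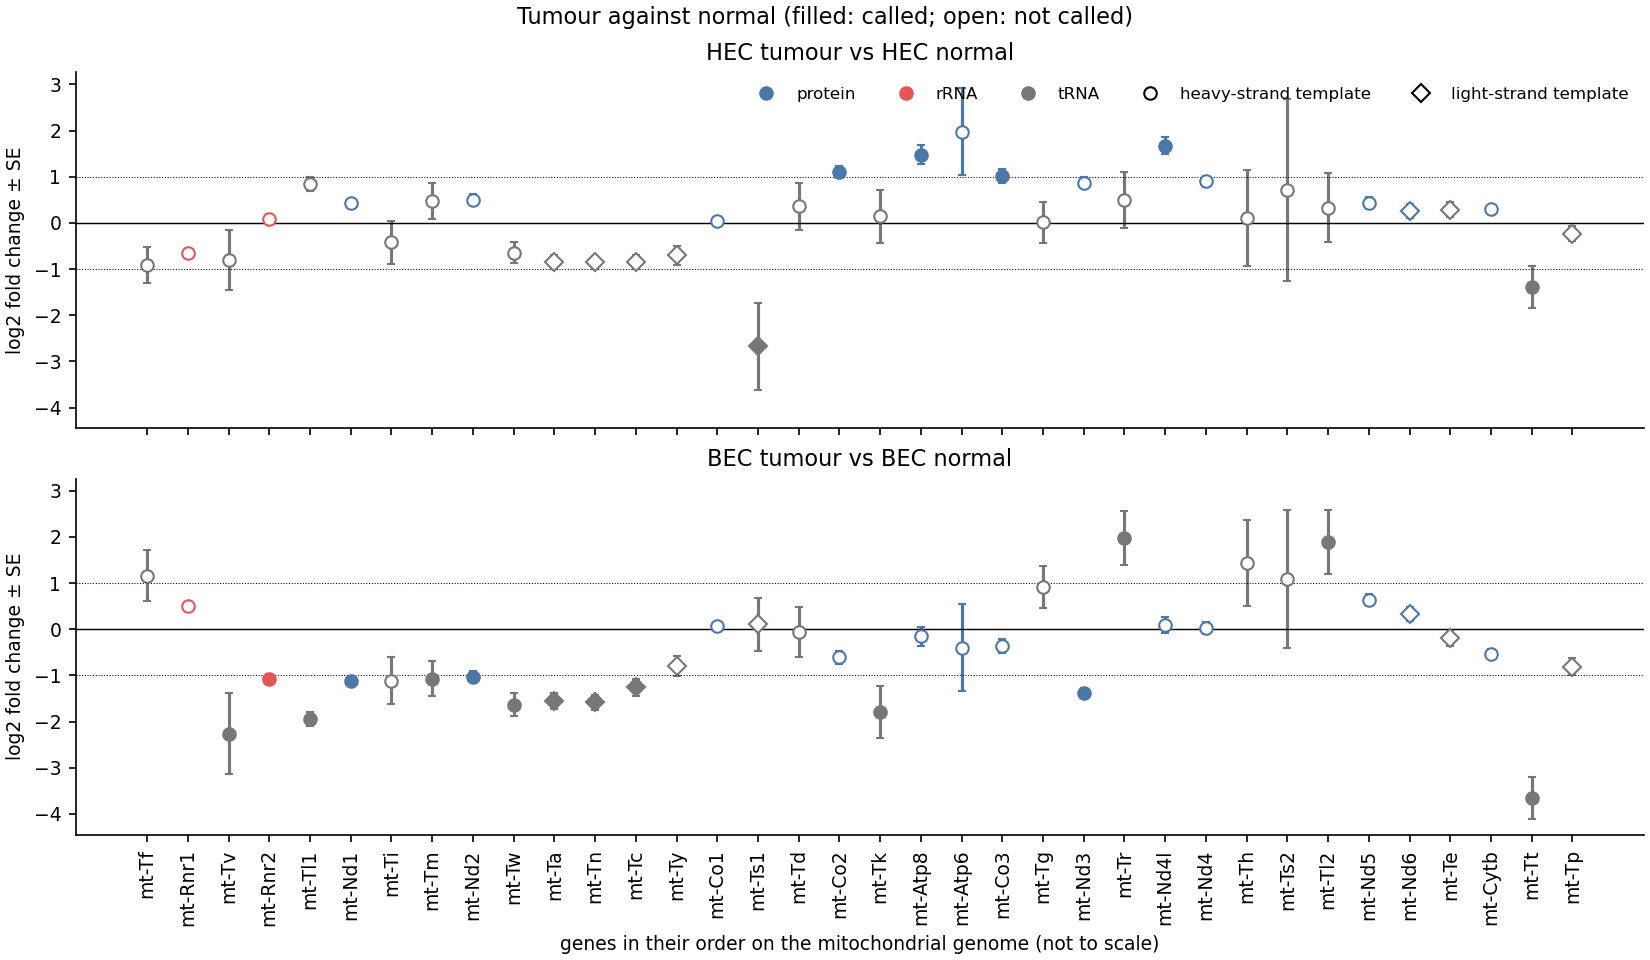
Log2 fold change ± SE of each mitochondrial gene for HEC tumour against HEC normal (top) and BEC tumour against BEC normal (bottom), with symbols, colours and lines as in the plot of HECs against BECs. The protein genes lie above 0 throughout the top panel, while mt-Nd1, mt-Nd2, mt-Nd3, mt-Rnr2 and most tRNAs lie below 0 in the bottom panel.

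For the 7 mRNAs with a copy on chromosome 1 the values depended on how reads were shared between gene and copy. The copies held 28.03% to 34.4% of the sum of the 7 genes and their copies in BEC normal, 26.2% to 28.8% in BEC tumour and 10.9% to 16.6% in HEC normal. In HEC tumour they held 14.9%, 0.533% and 3.32%, so that HEC tumour 1 stood apart from HEC tumour 2 and 3. Gm28661, the copy of mt-Co2, stood at 172386, 92167 and 152847 in BEC normal and at 26125, 1136 and 5954 in HEC tumour, as deposited. Adding each copy to its gene removed most of the spread within HEC tumour for 6 of the 7 genes, but for mt-Atp6 the coefficient of variation went from 75.3% to 88.2%. The median coefficient of variation over the 7 genes in that group was 17.6% for the genes, 124% for the copies and 2.35% for their sum. In the other groups the sum varied less than the gene for 7 genes in BEC normal, but for only 4 in BEC tumour and 4 in HEC normal.

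With the copies added, an alternative chosen after the values had been seen, the lower level in HEC normal than in BEC normal was somewhat larger, at -2.35 ± 0.0656 for mt-Co2, -2.08 ± 0.0799 for mt-Nd3, -1.62 ± 0.0402 for mt-Co3 and -1.35 ± 0.146 for mt-Nd4l. The difference of HEC tumour from HEC normal became smaller: mt-Co2 stood at 0.67 ± 0.0656 and mt-Co3 at 0.71 ± 0.0403, both under the fold threshold, and mt-Nd4l at 1.24 ± 0.146. Against BEC tumour the HEC tumour level turned from positive to negative for mt-Co3 (-0.49), mt-Nd3 (-0.16) and mt-Nd4l (-0.18), and mt-Co2 became called lower (-1.07 ± 0.0655, adjusted p = 2.54e-58). The 5 protein genes outside the copied span (mt-Nd1, mt-Nd2, mt-Nd5, mt-Nd6 and mt-Cytb) do not depend on this choice through their own counts. Their log2 fold changes ran from -1.42 to 0.87 for HEC normal against BEC normal (median -0.85), from 0.26 to 0.50 for HEC tumour against HEC normal (median 0.43) and from -1.13 to 0.64 for BEC tumour against BEC normal (median -0.54). Of the 5, 0 were called in the second of these comparisons, and 2 were called lower in the first and in the third.

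**Figure D4:**
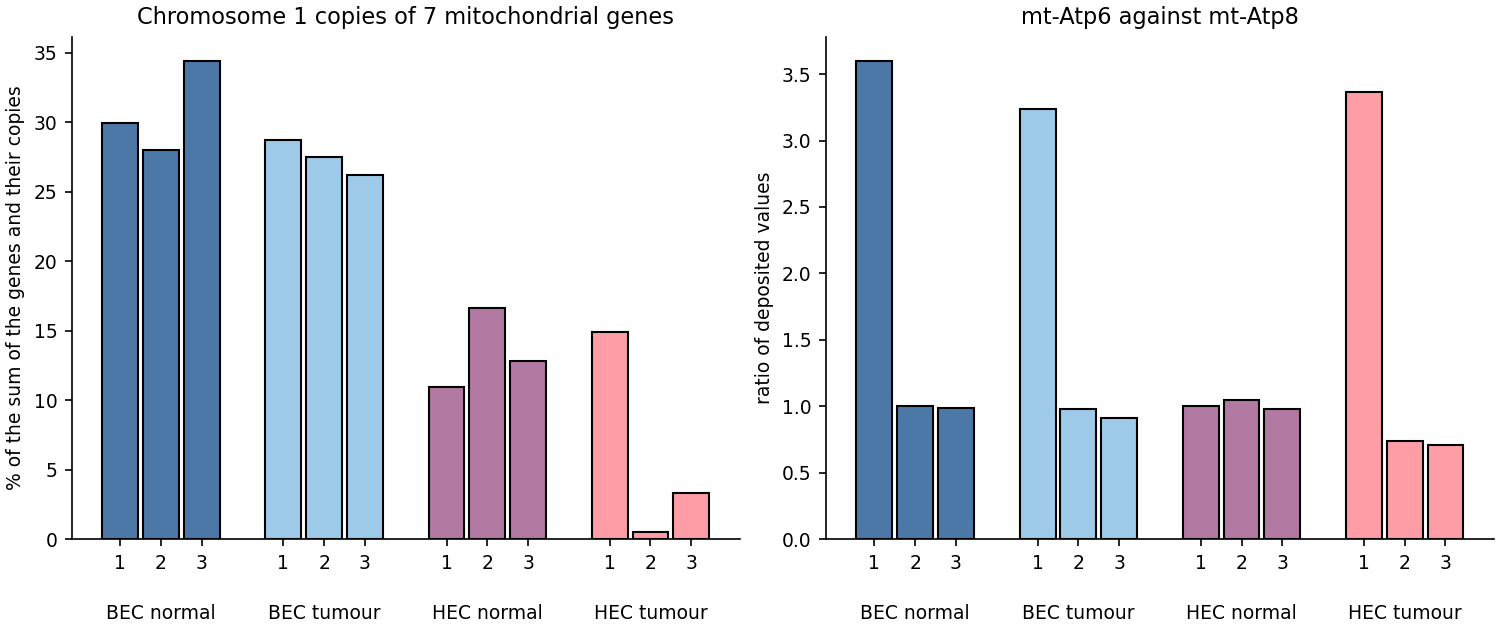
Left, the share of the summed values of 7 mitochondrial genes and their chromosome 1 copies that the copies held, in percent; right, the ratio of the deposited values of mt-Atp6 to mt-Atp8. Each bar is 1 library, numbered within its group. In HEC tumour the share runs from 0.533% to 14.9%, and the ratio stands at 3.24 to 3.60 in the first library of BEC normal, BEC tumour and HEC tumour and at 0.707 to 1.04 in the other 9.

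mt-Atp6, the ATP synthase subunit whose reading frame begins inside mt-Atp8, differed between libraries of a group as no other mitochondrial mRNA did. The 43 bases that the genes share are printed with the first codon of mt-Atp6 in capitals.
mt-Atp8 and mt-Atp6, chrM:7927-7969, plus strand: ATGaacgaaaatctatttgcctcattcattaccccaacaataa
mt-Atp6 stood at 161342, 27948 and 26830 normalised counts in BEC normal and 111838, 28877 and 23358 in BEC tumour. In the HECs it stood at 83849, 26217 and 24539 with a tumour and at 12911, 10967 and 10453 without. The first library was thus over 3 times each of the others in every group but HEC normal. DESeq2 gave the gene neither a p nor an adjusted p in any endothelial comparison, as its default check for outlying values withholds both. With the replicate number as a block it was called lower in HEC normal against BEC normal (-2.02 ± 0.441, adjusted p = 1.23e-05) and higher in HEC tumour against HEC normal (1.58 ± 0.441, adjusted p = 0.00161). Without BEC normal 1, BEC tumour 1 and HEC tumour 1, a choice made after the values had been seen, its log2 fold change was -1.26 ± 0.110 for HEC normal against BEC normal (adjusted p = 7.66e-30), 1.15 ± 0.110 for HEC tumour against HEC normal (adjusted p = 2.56e-24) and -0.07 ± 0.120 for BEC tumour against BEC normal (adjusted p = 0.658). Without BEC normal 1 alone the first of these was -1.26 but not called (adjusted p = 0.180). With the chromosome 1 copy added and all libraries kept, it was called lower in HEC normal against BEC normal (-2.05 ± 0.685, adjusted p = 0.00525) and not called for HEC tumour against HEC normal (0.56 ± 0.685, adjusted p = 0.581) or against BEC tumour (-1.07 ± 0.685, adjusted p = 0.180). mt-Atp8, with which it is transcribed, stood with all libraries at -1.55 for HEC normal against BEC normal, 1.48 for HEC tumour against HEC normal and -0.16 for BEC tumour against BEC normal. The cause was not tested.

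In EO771 cells every mitochondrial mRNA tested was higher after 12-HETE. Their sum was 0.718%, 0.816% and 0.729% of the library in EO771 vehicle and 2.24%, 2.25% and 2.45% in EO771 12-HETE, a ratio of the means of 3.06 (exact two-sided permutation test, p = 0.1, the smallest that 3 libraries against 3 allow). Of 12 genes tested 10 were called higher and 0 lower, beside 2.38% and 7.79% of all genes tested. The other 2, mt-Nd5 and mt-Nd6, had adjusted p under 0.05 and a fold under 2. The median log2 fold change was 1.79, beside 0.00117 for all genes. The groups did not overlap for any of the 12, but how often this held among all genes was not counted. By adjusted p alone (DESeq2 Wald test), 2637 of all 11602 genes tested were higher and 2813 lower.

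mt-Nd1, the mRNA nearest to the heavy-strand promoter, had the largest change. It stood at 10705, 13797 and 10878 normalised counts in EO771 vehicle and at 84565, 83668 and 93407 in EO771 12-HETE (log2 fold change 2.89 ± 0.125, adjusted p = 2.62e-115). mt-Nd2, the next mRNA, stood at 4161, 5221 and 3859 against 24624, 22138 and 27438 (2.49 ± 0.142, adjusted p = 2.56e-66). mt-Co1, after it, stood at 75588, 77989 and 71241 against 182105, 185795 and 199394 (1.34 ± 0.0822, adjusted p = 3.04e-57). mt-Cytb, the last mRNA of the strand, stood at 13723, 17185 and 15758 against 52778, 54772 and 59342 (1.84 ± 0.112, adjusted p = 1.13e-58). mt-Nd4 changed by 1.75 ± 0.123 (adjusted p = 4.72e-44). mt-Nd5, between those genes, stood at 14243, 15706 and 14878 against 27590, 27264 and 29842 (0.92 ± 0.0844, adjusted p = 7.00e-26), and mt-Nd6 of the light strand at 2957, 3651 and 3158 against 5523, 5267 and 6296 (0.81 ± 0.121, adjusted p = 3.82e-10). These were the smallest changes of the 12. Accordingly, mt-Nd6 went from 2.42% ± 0.125 to 1.35% ± 0.0590 of the mRNA sum and mt-Co1 from 55.8% ± 2.24 to 44.8% ± 0.483 (SD, n = 3).

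**Figure D5:**
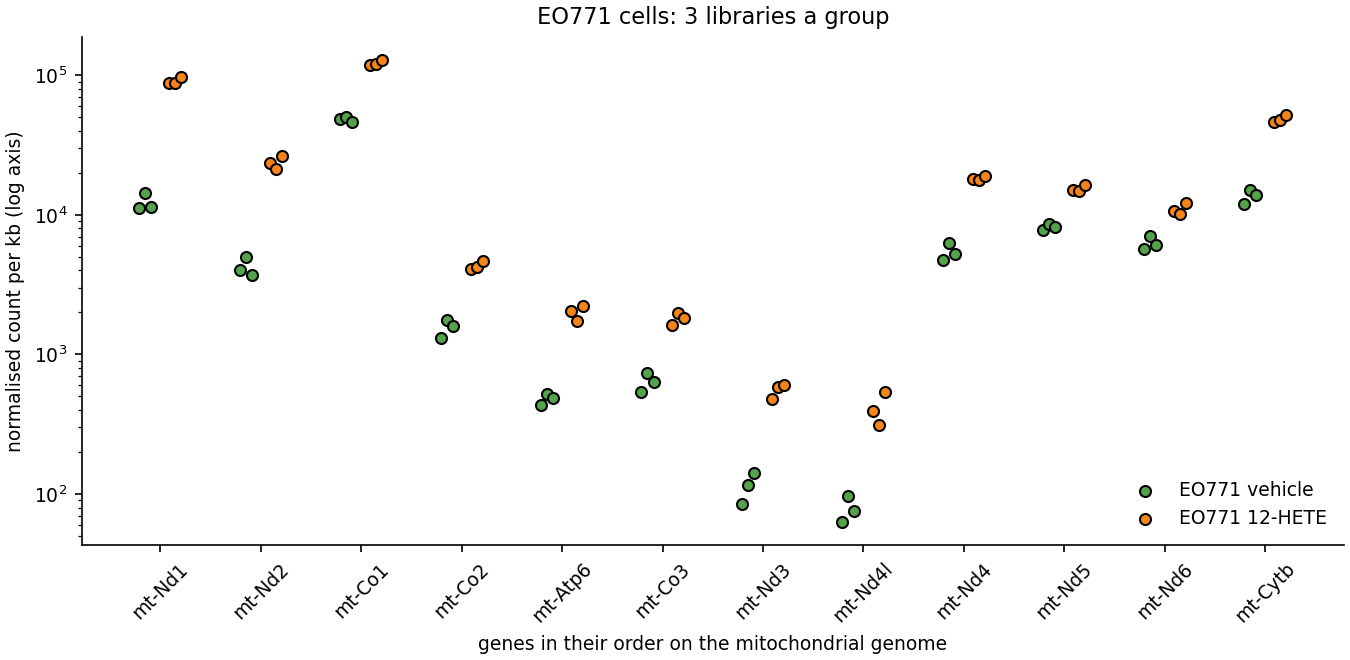
Normalised counts per kb of 12 mitochondrial mRNAs in EO771 cells, on a log axis, with 3 libraries per group as points and genes in genome order; mt-Atp8 is left out because it stood at 0 in 2 libraries. The 12-HETE libraries lie above the vehicle libraries for each gene, and mt-Co2, mt-Atp6, mt-Co3, mt-Nd3 and mt-Nd4l lie far below the others in both groups.

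The mRNAs that are matched almost whole by the annotated chromosome 1 copies were scarce in EO771. Per kilobase, mt-Co2, mt-Atp6, mt-Co3, mt-Nd3 and mt-Nd4l stood at 1559 ± 237, 483 ± 43.0, 635 ± 98.7, 114 ± 27.97 and 78.6 ± 16.8 normalised counts in EO771 vehicle, whereas mt-Nd4, of which 63.6% is matched, stood at 5457 ± 804 and mt-Co1, of which 31.3% is matched, at 48504 ± 2214. The 5 mRNAs outside the copied span stood at 4252 to 13597 per kb. mt-Atp8, which lies within that span, was listed at 0, 1 and 0 reads in vehicle and 1, 4 and 1 in 12-HETE. In HEC normal mt-Co2 and mt-Co3 stood at 61633 ± 5033 and 71630 ± 12058 per kb, but mt-Nd3, mt-Atp6 and mt-Nd4l at 13453, 16804 and 28121. There the 5 mRNAs outside the copied span ran from 56618 (mt-Nd2) to 86541 (mt-Nd6). In BEC normal the 5 matched mRNAs ran from 46204 (mt-Nd3) to 279887 (mt-Co2), and the 5 outside the span from 45739 (mt-Nd5) to 188563 (mt-Nd1). The copies are not listed in the table of the EO771 cells, and how reads that match several places were counted is not given in the sources used here. Despite the low counts the 5 matched mRNAs rose too in EO771, with log2 fold changes of 1.47 ± 0.134 (mt-Co2), 2.05 ± 0.140 (mt-Atp6), 1.51 ± 0.148 (mt-Co3), 2.29 ± 0.247 (mt-Nd3) and 2.39 ± 0.327 (mt-Nd4l). The values of mt-Nd3 and mt-Nd4l lay within their SE of that of mt-Nd2. mt-Nd4l, for example, stood at 18.8, 28.7 and 22.5 normalised counts in vehicle and at 116, 92.6 and 159 in 12-HETE (adjusted p = 4.20e-12).

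Histone mRNAs, from a list of transcripts taken to lack a poly(A) tail, moved the opposite way in the same libraries. Of 15 listed, 7 were in the EO771 table and 5 were tested, of which 4 were called lower and 0 higher, beside 7.79% and 2.38% of all genes tested, with a median log2 fold change of -3.16. All 4 were replication-dependent histone mRNAs, and no small RNA of the list was called here. Hist1h1c stood at 2958 ± 519 normalised counts in vehicle and 331 ± 39.8 in 12-HETE (log2 fold change -3.16 ± 0.161, adjusted p = 1.18e-83), and Hist1h2bc at 254 ± 44.98 and 41.3 ± 1.59 (-2.62 ± 0.230, adjusted p = 2.11e-28). The list summed to 282 to 393 CPM in vehicle and 98.95 to 103 in 12-HETE. In the same libraries, markers of epithelium and tumour cells summed to 3446 to 4416 CPM in vehicle and 2567 to 2641 in 12-HETE. Mitochondrial mRNAs carry short poly(A) tails. Whether the recovery of RNA by its tail differed between these groups was not tested. In the endothelial libraries 6 of 11 transcripts of that list tested were called higher and 1 lower in HEC normal against BEC normal, beside 17.1% and 15.1% of all genes tested. The higher ones included the small RNAs Rn7sk (2.07 ± 0.608, adjusted p = 0.00133) and Rn7s1 (4.57 ± 0.772, adjusted p = 1.13e-08, at 481 ± 536 normalised counts in HEC normal), in the comparison in which mt-Rnr1 and 5 light-strand tRNAs rose. The lower one was Hist1h2bc, with the smallest adjusted p of the list (-2.40 ± 0.162, adjusted p = 1.21e-48). In HEC tumour against BEC tumour 3 of 11 were called higher and 1 lower, beside 11.2% and 10.7% of all genes tested. The lower one was again Hist1h2bc (-2.47 ± 0.163, adjusted p = 1.86e-50). The bearing of these transcripts on the ribosomal RNAs and tRNAs was not tested.

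The nuclear genes that transcribe, process and stabilise mitochondrial RNA are given by list. Polrmt, the mitochondrial RNA polymerase, and Tfam, which packages the genome and activates its promoters, were called in no comparison. In EO771 Polrmt stood at 816 normalised counts in vehicle and 677 in 12-HETE (log2 fold change -0.27 ± 0.104, adjusted p = 0.0218) and Tfam at 1167 and 1143 (-0.03 ± 0.107, adjusted p = 0.838). Lrpprc, which stabilises mitochondrial mRNAs, stood at 0.60 ± 0.137 there (adjusted p = 7.41e-05), while Supv3l1 and Pnpt1, a helicase and a nuclease of mitochondrial RNA decay, stood at -0.59 ± 0.119 (adjusted p = 4.98e-06) and -0.38 ± 0.160 (adjusted p = 0.0408). None of these 5 passed the fold threshold in any comparison.

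Of 11 genes of mitochondrial transcription, 2 were called higher and 3 lower in HEC normal against BEC normal, where 17.1% and 15.1% of all genes tested were called. Mterf1a, of the mitochondrial transcription termination factor family, was higher (1.24 ± 0.169, adjusted p = 1.44e-12). Tfb2m, the initiation factor of the polymerase, was lower (-1.001 ± 0.124, adjusted p = 4.31e-15). Mterf1a was higher in HEC tumour against BEC tumour as well (1.28 ± 0.166, adjusted p = 1.21e-13), and Tfb2m rose from HEC normal to HEC tumour (1.12 ± 0.124, adjusted p = 8.56e-18). Its interaction term was 1.56 ± 0.175 (adjusted p = 5.85e-18). In BEC tumour against BEC normal 0 of the 11 were called higher and 2 lower (12.4% and 10.8% of all genes tested), and in EO771 1 was called higher and 0 lower (2.38% and 7.79%).

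Among 20 genes of mitochondrial RNA processing and modification 0 were called in HEC normal against BEC normal, in either tumour against normal comparison, and 1 in each of the others without the interaction. Of all genes tested, 17.1% were called higher and 15.1% lower in HEC normal against BEC normal, and 11.2% and 10.7% in HEC tumour against BEC tumour. The shares were 4.58% and 3.21% in HEC tumour against HEC normal and 12.4% and 10.8% in BEC tumour against BEC normal. In EO771 they were 2.38% and 7.79%. Trmt10c, a subunit of RNase P that cuts the tRNAs at their 5′ ends, was higher in HEC tumour against BEC tumour, at 4600 and 1126 normalised counts (2.03 ± 0.128, adjusted p = 6.40e-55). Trit1, which modifies tRNAs, was lower in EO771 12-HETE (-1.07 ± 0.116, adjusted p = 6.89e-19). Of 11 genes of RNA stability and decay, Slirp, the partner of Lrpprc, was the only one called outside the interaction, lower in HEC normal against BEC normal (-1.24 ± 0.292, adjusted p = 5.01e-05). In the interaction 3 processing genes (Fastkd5, Mtpap and Trmt10c) and 3 stability genes (Fastkd2, Fastkd3 and Rexo2) had a higher change in HECs and 0 of either list a lower one, beside 11.2% and 12.1% of all genes tested. Of 12 genes of mitochondrial DNA replication, for which the shares of all genes given above apply, Dna2 was called higher (1.07 ± 0.133) and Tk2 lower (-1.14 ± 0.175) in EO771 12-HETE. Dna2 was called lower in HEC normal against BEC normal (-1.27 ± 0.132) and in HEC tumour against BEC tumour (-1.09 ± 0.132), where Polg2 was called higher (1.02 ± 0.144).

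The nuclear partners of the mitochondrial proteins did not follow them in EO771 by the same amount. Of 78 nuclear subunits of the respiratory chain and the ATP synthase tested there, 2 were called higher and 0 lower, beside 2.38% and 7.79% of all genes tested, with a median log2 fold change of 0.21. The 2 were Uqcrh of complex III (1.23 ± 0.105, adjusted p = 6.12e-30) and Cox7b of complex IV (1.05 ± 0.111, adjusted p = 1.33e-19). Of 48 mitochondrial ribosomal proteins tested 2 were called higher and 0 lower, with a median of 0.05. In HEC normal against BEC normal 1 of 86 nuclear subunits was called higher and 3 lower, beside 17.1% and 15.1% of all genes tested, with a median of -0.13, and Ndufs1 of complex I was the most certain of these (-1.47 ± 0.0555, adjusted p = 3.01e-153). In HEC tumour against HEC normal 1 was called higher and 0 lower, beside 4.58% and 3.21% of all genes tested, with a median of -0.25, in the comparison in which all 13 mitochondrial mRNAs had positive values. Of 7 regulators of mitochondrial biogenesis, the coactivator genes Ppargc1a and Ppargc1b were called higher for HEC normal against BEC normal (3.05 ± 0.380 and 1.23 ± 0.191), beside 17.1% of all genes tested. With a tumour they were called lower among HECs (-1.50 ± 0.346 and -1.03 ± 0.190), beside 3.21% of all genes tested. Among BECs they were called higher with a tumour (1.82 ± 0.386 and 1.51 ± 0.190), beside 12.4% of all genes tested.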

How the data were processed

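RNA of sorted endothelial cells and of EO771 cells was sequenced as 12 and 6 libraries. The labels name an mRNA kit for all of them, whereas the study's methods name NEBNext kits and, for EO771, total stranded RNA. Per the study's methods, reads were aligned with STAR to GRCm38 and counted with featureCounts. The endothelial table holds estimated counts as the authors deposited them. They mostly fall on multiples of a step of 3.63 to 3.71 (median 3.69), which differs by library. The origin of the step is not given in the sources used here. The values entered the tests as whole numbers. The EO771 table holds whole read counts as deposited, by gene symbol.

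Genes with a mean under 10 were left out. DESeq2 1.42.0 (R 4.3.3) was fitted to the 12 endothelial libraries together and to the 6 EO771 libraries, by Wald tests with Benjamini-Hochberg adjustment over all genes. A gene was called at an adjusted p under 0.05 and a fold over 2. edgeR 4.0.16 was an alternative, and both were tested on simulated data. Shares were compared by exact two-sided permutation tests. Nuclear copies were found by blastn 2.17.0 of the mitochondrial transcripts against all GENCODE transcripts. Positions are 1-based on GRCm38. The 260 endothelial identifiers and 298 EO771 symbols without a match in the annotation stayed in the tests.

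The genes and lists were chosen with earlier results of these data known. Full statistics are given for mt-Rnr1, mt-Rnr2, mt-Nd6 and up to 10 called genes of smallest adjusted p per comparison, and from the nuclear lists for Polrmt, Tfam, Lrpprc, Pnpt1, Supv3l1 and up to 4 called genes per list. Replicate libraries differed beyond counting noise, but unequally in EO771. The chi-square per gene between 2 replicates was 2.40 to 2.72 in EO771 12-HETE and 16.5 to 46.4 in EO771 vehicle. DESeq2 fits the dispersion of a gene over all groups together. The labels do not say whether they came from separate mice or cultures, so p-values measure the spread between these libraries. Whether equal replicate numbers mark pairs could not be decided from the values.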

Additional observations from a re-analysis of the deposited data

Results flagged for a closer look

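The tumour change differed between HECs and BECs for 15 mitochondrial genes by the interaction test of DESeq2, in which 11.2% of all genes tested had a higher and 12.1% a lower change in HECs. The values are the log2 change in HECs less that in BECs. Among mRNAs they were 1.56 for mt-Nd1, 1.53 for mt-Nd2, 1.71 for mt-Co2, 1.63 for mt-Atp8, 1.39 for mt-Co3, 2.25 for mt-Nd3 and 1.58 for mt-Nd4l. The ribosomal RNAs stood at -1.15 for mt-Rnr1 and 1.17 for mt-Rnr2. The tRNAs stood at -2.08 for mt-Tf, 2.79 for mt-Tl1, 1.54 for mt-Tm, -2.78 for mt-Ts1, 1.94 for mt-Tk and 2.26 for mt-Tt. For 13 of the 15 the fitted changes in the 2 cell types had opposite signs, which choosing genes by their difference favours. The exceptions were mt-Nd4l, at 1.67 in HECs and 0.09 in BECs, and mt-Tt, at -1.39 and -3.65. How often signs were opposite among all genes was not counted. Among the 13, the change of mt-Rnr2, mt-Tm and mt-Tk in HECs had an adjusted p over 0.05 (DESeq2 Wald test). In BECs so did that of mt-Tf, mt-Ts1 and mt-Atp8. mt-Ts1 stood at 0 in HEC tumour 2 and 3, so its fitted value is no bound. No library was tested as an outlier as a whole. By gene, the default outlier check of DESeq2 left 65 of 18511 endothelial genes without an adjusted p in each comparison, mt-Atp6 among them.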

How the results depend on the processing

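Counts of mitochondrial genes called moved by over 1.5 times as follows. With the adjusted p alone, 13 genes were higher in HEC normal against BEC normal, 19 in HEC tumour against BEC tumour, 11 in HEC tumour against HEC normal (9 lower) and 4 in BEC tumour against BEC normal. In HEC tumour against HEC normal 2 were higher with the chromosome 1 copies added, and 1 was lower by edgeR and 0 with values divided by the step (DESeq2; mt-Tt at -1.41 and mt-Ts1 at -2.77), which also left 1 lower in the interaction. Leaving out 1 library gave 2 to 4 higher (2 without HEC tumour 2) and 1 to 2 lower there, where leaving out HEC normal 2 or any 1 HEC tumour library left 1 lower. In BEC tumour against BEC normal it gave 1 to 4 higher, with 4 without BEC normal 1 and 1 without BEC tumour 3. The range was 7 to 9 higher and 10 to 14 lower for HEC normal against BEC normal, 11 to 13 and 4 to 5 for HEC tumour against BEC tumour, and 10 higher throughout in EO771. Among protein genes alone mt-Co1 held 59.0% in HEC normal and 47.8% in HEC tumour. The interaction of mt-Nd6 ranged from -0.262 to 0.0648 when 1 library was left out and changed sign, to 0.0648, 0.0222 and 0.0360, without BEC normal 2, BEC normal 3 or BEC tumour 2. No share of the library changed direction. The cause was not tested in any of these. The copies-added alternative and the one without the 3 libraries of high mt-Atp6 were chosen after seeing the data.

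With the replicate number as a block, 7, 13, 5, 2, 12 and 10 genes were called higher in the order of the report and 13, 5, 2, 13, 3 and 0 lower, and all 78 results followed kept their side of the threshold. mt-Atp6, which had no adjusted p without the block, gained calls. Same-numbered libraries correlated in their deviations from the group means at -0.0153 to 0.0530 (endothelial) and 0.0254 to 0.154 (EO771). Differently numbered ones stood at -0.0569 to 0.0320 and at -0.114 to 0.0331. Deviations within a group of 3 sum to 0, so these values cannot decide whether the numbers pair the libraries. Values of a few reads, as for mt-Ts1, mt-Ts2 and mt-Tv, limit what can be said of those tRNAs.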

Other observations

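The mt-Atp6 pattern was looked for in all genes, after it had been seen. Among 14664 genes with a mean of at least 50 normalised counts, 1 gene stood more than 2-fold above both other libraries in the first library of BEC normal, BEC tumour and HEC tumour at once, and it was mt-Atp6. With the 3 other choices of 3 groups, 0, 2 and 0 genes did so. Its chromosome 1 copy, Gm10925, stood at 142170, 56422 and 104171 deposited counts in BEC normal and at 88891, 91967 and 68422 in BEC tumour, where the first library was not the highest. In HEC tumour it stood at 33720, 1432 and 6896, where the first library was the highest. Gene and copy together stood at 325127, 80172 and 130583 in BEC normal and at 106354, 27999 and 29066 in HEC tumour.

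Copies outside chromosome 1 took few reads. Gm13340 on chromosome 2, a copy of the whole of mt-Co1 at 97.6% identity, stood at 437 to 1370 deposited counts, where mt-Co1 itself stood at 470079 to 915632. Gm11408, the copy of mt-Nd6 on chromosome 4 at 93.6% identity, stood at 0 to 5.

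Position along the heavy strand gave no uniform order. Over the 12 heavy-strand protein genes Spearman's rho between level per kb and start was -0.55 and -0.29 for BECs (normal and tumour) and -0.10 and -0.27 for HECs. Between log2 fold change and start it was -0.35 over 11 genes in EO771 and 0.43 over 12 genes in BEC tumour against BEC normal. Genes of a precursor share their libraries and are not independent, and no test was made.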
